A study of Mus musculus with 5 samples.

Results

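The semaphorins are a family of guidance ligands, and the plexins and neuropilins are their receptors. In the count table of these mouse cerebella, 31 of 55421 gene identifiers were protein-coding genes of this kind: 20 semaphorins of classes 3 to 7, 9 plexins of groups A to D, and the neuropilins Nrp1 and Nrp2. They were chosen by symbol in the GENCODE M21 annotation of GRCm38. The Yy1 cKO group had 3 libraries from Pcp2 Cre/+; Yy1 fx/fx mice, and the control group had 2 libraries from littermates with the genotype Pcp2 Cre/+; Yy1 fx/+, so the controls also carried the Cre and a floxed Yy1 copy. All were whole cerebella at postnatal day 14, of mixed sex, profiled by bulk RNA-seq. YY1 is a zinc finger transcription factor, and the Pcp2 promoter drives Cre in Purkinje cells, the inhibitory neurons whose axons leave the cerebellar cortex. These are few among the cells of the tissue.

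Class 3 semaphorins are secreted and mostly act through a neuropilin, which binds the ligand, and a plexin A, which carries the signal into the cell. Semaphorins of classes 4 to 6 span the membrane, the class 7 protein Sema7a is anchored by a lipid, and these bind plexins directly. The cytoplasmic part of a plexin acts on small GTPases, and the signal remodels actin and microtubules in growing axons, dendrites and migrating cells. In the mouse cerebellum Sema6a and its receptor Plxna2 are known for their role in the inward migration of granule cells, Plxnb2 for its role in granule cell precursors, and Sema3a and Sema7a from Purkinje cells for the strengthening and pruning of climbing fibre synapses.

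Library totals ran from 17424860 to 20305705 counts. Yy1 itself gave 73.4, 81.7 and 75.8 CPM (counts scaled to library size by TMM) in Yy1 cKO 1, 2 and 3, against 74.6 and 73.7 CPM in controls 1 and 2 (log2 fold change 0.05 ± 0.065, SE, adjusted p = 0.61 by edgeR). This whole-tissue count includes cells without Cre and does not separate the floxed part, so it checks the labels little. The labels do not tie the replicates to single animals, and p-values measure the spread between these samples. Yy1 cKO 3 stood apart from the other libraries on the second principal component (17% of the variance) and, with control 1, was 1 of the 2 libraries with Y-linked transcripts, so libraries of both sexes, and hence of different animals, stood in each group. Nothing in the labels says whether Yy1 cKO 1 and 2, both without such transcripts, came from separate animals. Members whose call changes without it are given both ways. All 7 cerebellar identity genes were detected.

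The family was lower in more members than it was higher, and Sema6a and Plxna2, the ligand and the receptor of a known pair, both fell. Of the 31 members, 4 rose and 9 fell in Yy1 cKO cerebella (quasi-likelihood test of edgeR, threshold 0.05 on p adjusted by Benjamini-Hochberg over 20388 genes). That is 41.9% of the members, against 23.4% of all genes tested (10.7% higher and 12.6% lower) and 26.8% of the protein-coding ones. Every member passed the filter on low counts. The median log2 fold change was -0.16 over the members, against -0.0009 over all genes tested (-0.08 over all genes with libraries scaled by their totals alone). In 21 of the 31 members the CPM of the groups did not overlap, against 52.2% of all genes tested. Of the 13 called members, 8 kept their call and sign in all 13 alternative analyses: Sema6a, Sema5b, Sema3d, Plxna2, Plxna3, Plxnc1 and Plxnd1, which fell, and Plxna4, which rose.

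Calls in each direction were found among ligands and receptors, though Plxna4 was the only receptor that rose. Of all protein-coding genes tested 26.8% were called, 13.5% higher and 13.3% lower. Among the 20 ligands 3 rose and 4 fell (35.0%), with a median of -0.08. Among the 11 receptors 1 rose and 5 fell (54.5%), with a median of -0.27. The higher calls were thus near the protein-coding share in both sets. The 3 higher ligands were the least stable of these counts: 0 were called without control 1, 1 without control 2, 1 without Yy1 cKO 2 and 4 without Yy1 cKO 3. Without Yy1 cKO 3, 6 ligands were lower and 2 receptors were higher. With libraries scaled by their totals alone, 1 ligand rose and 6 fell, and 1 receptor rose and 7 fell. That scaling also moved the share of higher calls among all genes to 29.8%, against 45.9% with TMM. The difference between ligands and receptors was not tested.

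**Figure D1:**
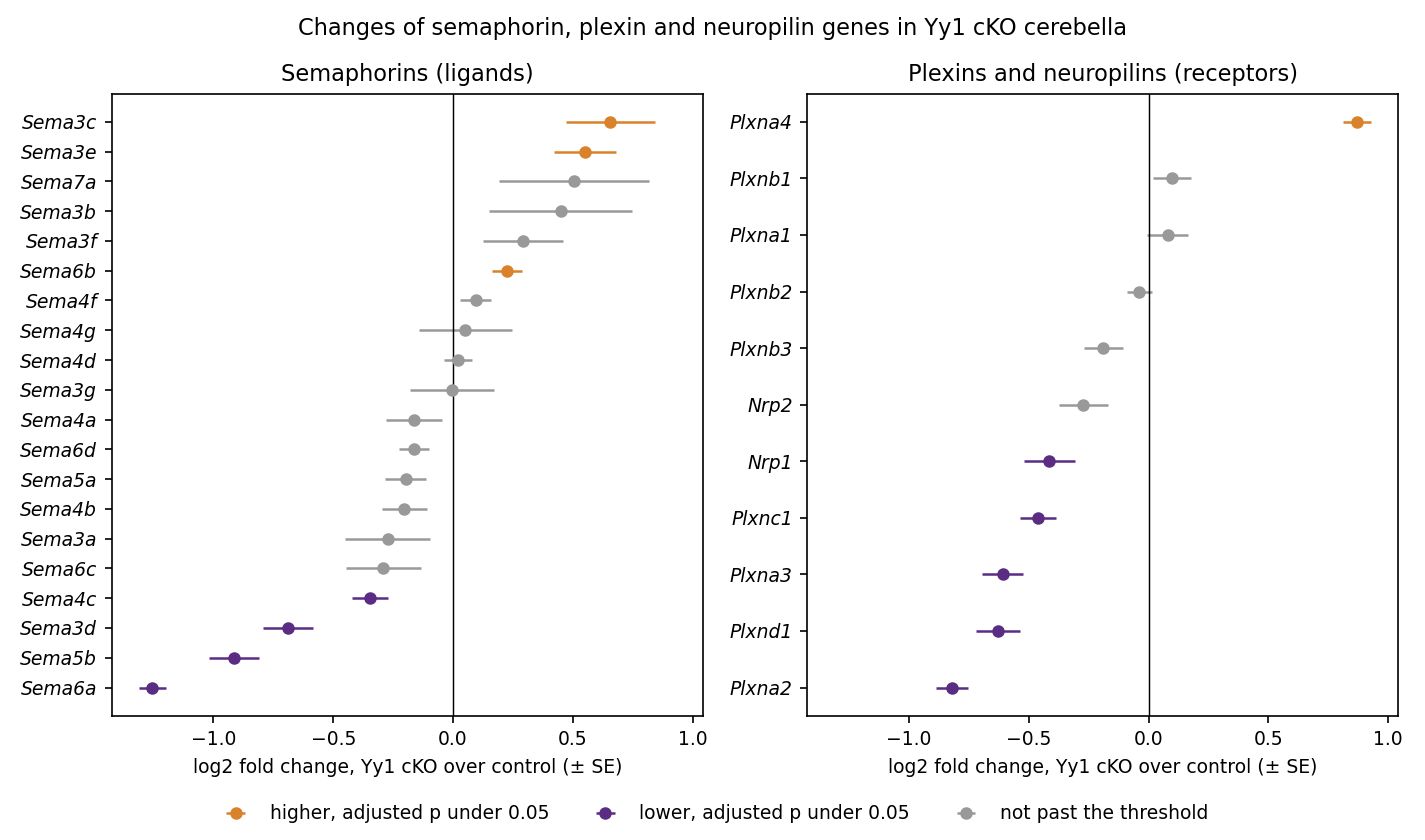
Log2 fold changes of the 20 semaphorins (left) and the 11 plexins and neuropilins (right), Yy1 cKO over control, with bars of 1 SE. Sema6a at -1.25 and Plxna2 at -0.82 stand at the low end of their panels, Plxna4 at 0.87 stands alone at the high end, and grey members did not pass the threshold.

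Per length of transcript, the ligands together gave 367, 358 and 342 TPM (a level per length, computed from the counts and union exon lengths) in Yy1 cKO 1, 2 and 3, against 430.0 and 385 TPM in controls 1 and 2. The receptors together gave 245, 239 and 238 TPM in Yy1 cKO, against 287.5 and 268 TPM in the controls. Both sums were lower in every Yy1 cKO library than in either control. TPM does not use the TMM factors, but the same held in TMM-scaled CPM. There the ligands gave 966 to 1026 CPM in Yy1 cKO and 1137 to 1202 CPM in controls, and the receptors 962 to 1028 and 1094 to 1132 CPM. The ratio of summed ligand to summed receptor TPM was nearly the same, at 1.48 ± 0.035 in Yy1 cKO (SD, n = 3) and 1.47 ± 0.042 in controls (SD, n = 2). Without Sema6a the ligand sums overlapped, at 315 to 340 TPM in Yy1 cKO and 322 to 358 TPM in controls. Without Plxna2 and Plxna4 the receptor sums still did not overlap, at 189.9 to 194 TPM in Yy1 cKO and 212 to 226 TPM in controls. In TMM-scaled CPM that gap was smaller in proportion, with means of 677 against 729 CPM, where TPM gave 191.5 against 219.2.

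The order of levels also differed. In controls Plxnb2 came first at 71.3 TPM and Sema6a second at 67.7 TPM, and these 2 overlapped. Sema7a, Plxna1, Sema4d, Sema6d and Plxna2 followed between 50.4 and 43.7 TPM, each overlapping its neighbour. In Yy1 cKO cerebella Sema7a (67.5 TPM) and Plxnb2 (65.8 TPM) led and overlapped, and Plxna1 and Sema4d followed. There Sema6a stood in place 8 at 26.9 TPM, overlapping Plxnb1 and, beyond it, Plxna4 and Sema4g. At the low end Sema3b, a secreted semaphorin, had 17 to 31 counts per library and 0.73 TPM in Yy1 cKO and 0.56 TPM in controls, the lowest level of the family in each group.

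**Figure D2:**
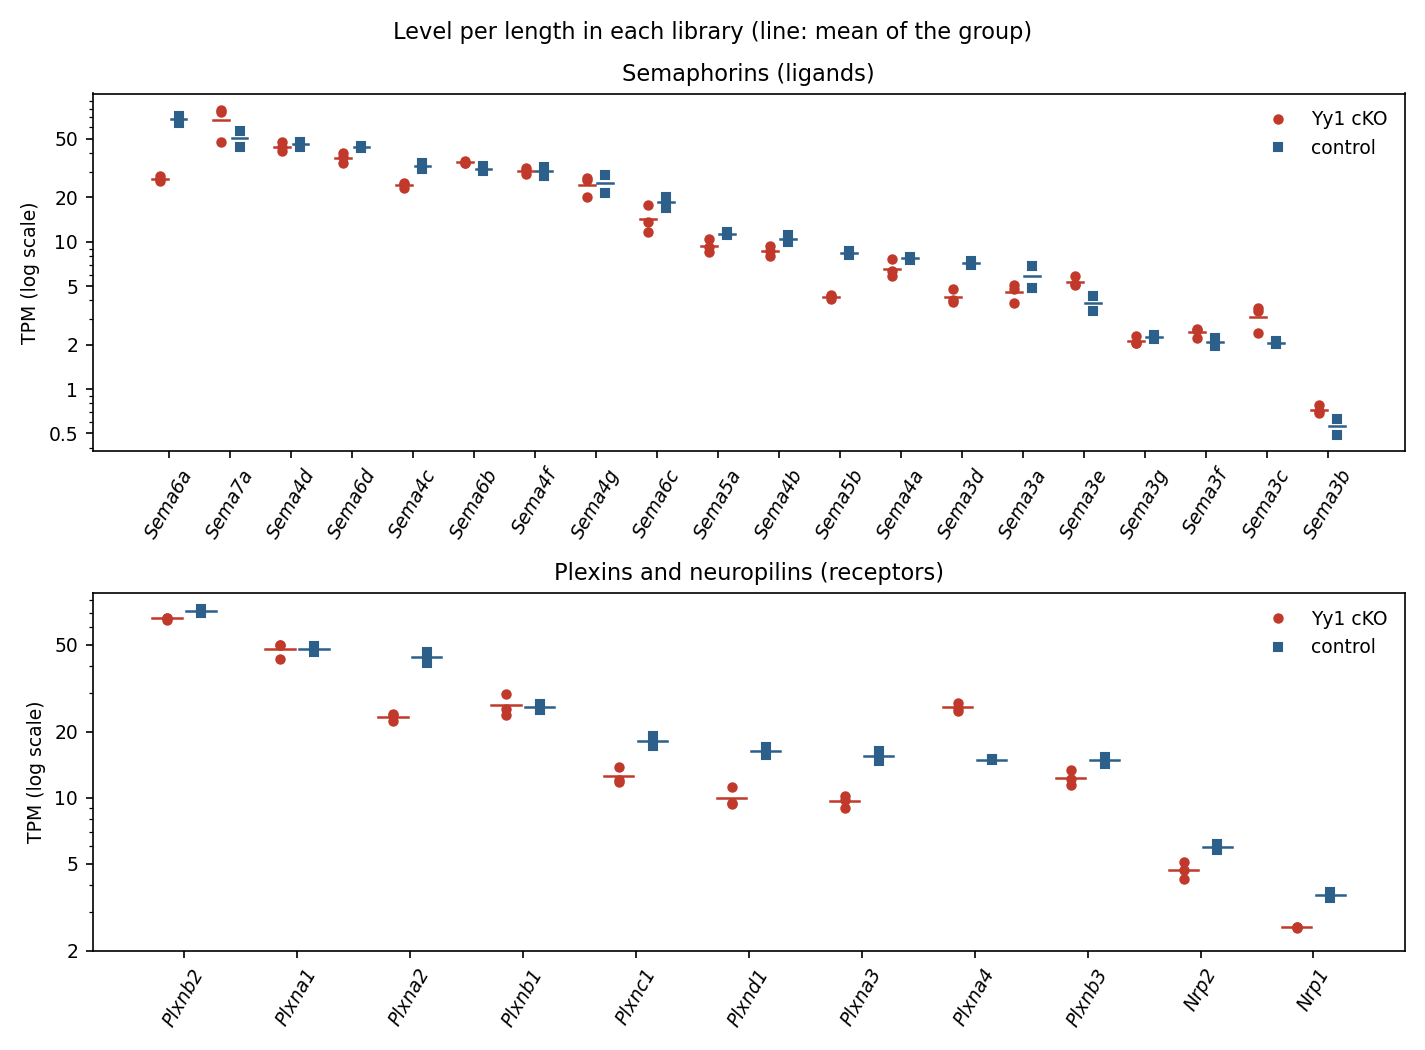
TPM of every member in every library on a log axis, with circles for Yy1 cKO, squares for control and lines at the group means; genes are sorted by their control mean. Members span from Sema3b under 1 TPM to Plxnb2 and Sema7a near 70 TPM, and Sema6a, Plxna2, Sema5b and Sema3d show clear gaps with Yy1 cKO below control.

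Among the ligands, Sema6a showed the largest change. It is a transmembrane semaphorin that binds Plxna2 and Plxna4 (ENSMUSG00000019647.16, chromosome 18, 47235598 to 47368870, minus strand, GRCm38). It stood at 102, 98.8 and 97.0 CPM in Yy1 cKO 1, 2 and 3, against 246 and 228 CPM in controls 1 and 2. The groups were far apart and tight within, and Sema6a fell by 1.25 ± 0.057 on the log2 scale (SE, adjusted p = 1.4e-06), to 0.42 times the control level. It made up 7.56% ± 0.32 of the ligands' summed TPM in Yy1 cKO (SD, n = 3) and 16.6% ± 0.089 in controls (SD, n = 2).

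The other class 6 members moved less. Sema6b, a ligand of Plxna4, had 56.8, 59.6 and 57.9 CPM in Yy1 cKO, against 50.5 and 48.9 CPM in controls (log2 fold change 0.23 ± 0.063, adjusted p = 0.028 by edgeR). That call was lost without control 1 or 2, without Yy1 cKO 1 or 2, with DESeq2 and with scaling by totals alone (adjusted p = 0.064 to 0.21). Sema6d, a ligand of Plxna1, had 165, 158 and 175 CPM in Yy1 cKO, against 179 and 193 CPM in controls, and did not pass (-0.16 ± 0.063, adjusted p = 0.089 by edgeR). Without Yy1 cKO 3 its log2 fold change was -0.20 with an adjusted p of 0.0056. Sema6c had 30.3 to 43.7 CPM in Yy1 cKO and 41.0 to 46.6 CPM in controls, and Yy1 cKO 3 was the library that overlapped the controls (-0.29, adjusted p = 0.24 by edgeR). Without that library its log2 fold change was -0.46 with an adjusted p of 0.00041.

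In class 5, whose members carry thrombospondin repeats and are known in the mouse retina as ligands of Plxna1 and Plxna3, Sema5b fell to 0.53 times its control level. Sema5b (chromosome 16, 35541145 to 35664732, plus strand) had 12.7, 13.4 and 11.8 CPM in Yy1 cKO, against 22.5 and 25.2 CPM in controls, a log2 fold change of -0.91 ± 0.11 (adjusted p = 2.7e-04 by edgeR). Its relative Sema5a had 81.5, 74.9 and 65.3 CPM in Yy1 cKO, against 84.8 CPM in each control, and did not pass (-0.20 ± 0.087, adjusted p = 0.14).

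The secreted class 3 ligands changed in opposite directions. Sema3d (chromosome 5, 12383385 to 12588948, plus strand) had 14.4, 14.5 and 16.9 CPM in Yy1 cKO, against 24.8 and 24.4 CPM in controls, and fell by 0.69 ± 0.11 on the log2 scale (adjusted p = 0.0014 by edgeR). Sema3e, which binds Plxnd1 without needing a neuropilin, had 20.03, 20.6 and 22.3 CPM in Yy1 cKO, against 12.4 and 16.3 CPM in controls, and rose by 0.55 ± 0.13 (adjusted p = 0.014 by edgeR). Sema3c had 7.15, 10.5 and 10.4 CPM in Yy1 cKO, against 5.70 and 6.13 CPM in controls, a rise of 0.66 ± 0.19 (adjusted p = 0.031 by edgeR). Both calls were lost when single libraries were left out: Sema3e was not called without control 1 (adjusted p = 0.15), and Sema3c was not called without control 1, control 2 or Yy1 cKO 2 (adjusted p = 0.19, 0.135 and 0.11), nor with limma-voom (0.053) or scaling by totals alone (0.051).

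The other class 3 members did not pass. Sema3a, the founding repellent of the class, had 27.7, 30.8 and 21.8 CPM in Yy1 cKO, against 37.2 and 27.6 CPM in controls, and the groups overlapped (-0.27 ± 0.18, adjusted p = 0.33 by edgeR). Sema3f, a ligand of Nrp2, and Sema3b lay above the controls in every Yy1 cKO library but had log2 fold changes of 0.29 ± 0.17 and 0.45 ± 0.30. Sema3g overlapped, at 3.81 to 4.33 CPM in Yy1 cKO and 3.87 to 4.29 CPM in controls.

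Of the 6 class 4 ligands only Sema4c was called. Sema4c, which acts with Sema4g through Plxnb2 in mouse development, had 47.4, 50.5 and 43.7 CPM in Yy1 cKO, against 61.3 and 58.7 CPM in controls, and fell by 0.35 ± 0.075 (adjusted p = 0.0090 by edgeR). It was not called without control 1 (adjusted p = 0.10) or control 2 (adjusted p = 0.064). An antisense transcript, D430040D24Rik, shares 334 of its 4593 exonic bases and had 51 to 67 counts per library, and the strand setting of the counting is not given in the sources used here.

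The rest of class 4 did not pass. Sema4g had 94.9, 102 and 71.5 CPM in Yy1 cKO, against 96.7 and 75.7 CPM in controls, and the groups overlapped widely (0.05 ± 0.19). Sema4d, a ligand of Plxnb1 made by oligodendrocytes, had 142, 139 and 149 CPM in Yy1 cKO, against 144 and 138 CPM in controls (0.02 ± 0.058). Sema4f had 69.8, 67.0 and 66.5 CPM in Yy1 cKO, against 66.5 and 60.4 CPM in controls (0.09 ± 0.066). Sema4a and Sema4b had 13.7 to 21.6 CPM in Yy1 cKO and 16.7 to 24.5 CPM in controls, with log2 fold changes of -0.16 and -0.20.

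Sema7a, which binds Plxnc1 and beta1 integrin, split the Yy1 cKO libraries. It had 105, 113 and 64.4 CPM in Yy1 cKO 1, 2 and 3, against 73.6 and 59.1 CPM in controls. Yy1 cKO 1 and 2 were above both controls and Yy1 cKO 3 lay between them, so the change did not pass (0.51 ± 0.31, adjusted p = 0.35 by edgeR). Without Yy1 cKO 3 it was 0.72 with an adjusted p of 0.0015. The same library was the lowest of its group for Sema4g and Plxna1 and the highest for Sema6c. Purkinje cell markers in this library lay on both sides of the other Yy1 cKO libraries. Itpr1 had 2697, 2806 and 2256 CPM and Car8 had 1043, 1051 and 648 CPM in Yy1 cKO 1, 2 and 3, while Pcp2 had 180.0, 178 and 344 CPM and Calb1 had 632, 623 and 734 CPM. The summed level of the 14 markers was 6821, 6901 and 5980 CPM, or 3071, 2969 and 2925 TPM, and their part in the values of Sema7a was not tested.

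**Figure D3:**
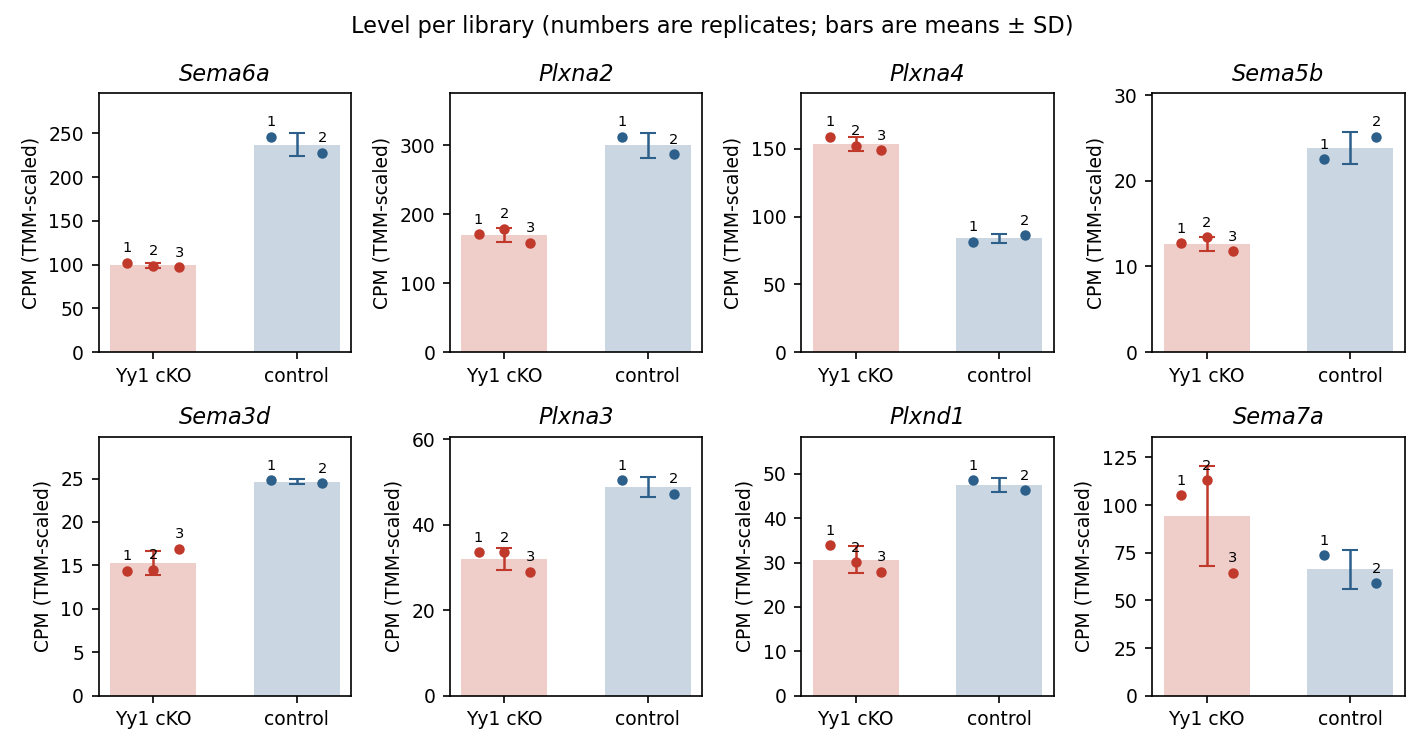
CPM in each library of 7 members whose calls held in every alternative and of Sema7a, with bars and error lines at the mean ± SD of Yy1 cKO (n = 3) and control (n = 2) and replicate numbers over the points. The groups are apart in every panel but that of Sema7a, where Yy1 cKO 3 at 64.4 CPM lies between the controls.

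Among the receptors, Plxna4 and Plxna2 of the plexin A group had the largest log2 fold changes, in opposite directions. Plxna2, the receptor through which Sema6a acts on migrating granule cells (chromosome 1, 194618218 to 194816869, plus strand), had 171, 179 and 159 CPM in Yy1 cKO, against 313 and 287 CPM in controls. The groups were apart, and it fell by 0.82 ± 0.067 on the log2 scale (adjusted p = 3.6e-05 by edgeR). Plxna4, a receptor of Sema3a, Sema6a and Sema6b (chromosome 6, 32144268 to 32588192, minus strand), had 159, 152 and 149 CPM in Yy1 cKO, against 81.6 and 86.3 CPM in controls. It was the only receptor that rose, by 0.87 ± 0.060 (adjusted p = 1.4e-05), or 1.83-fold. Its antisense partner Plxna4os3 shares 110 of its 14103 exonic bases and had 0 to 11 counts per library.

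Plxna3, known with Nrp2 as a receptor of Sema3f (X chromosome, 74329066 to 74344689, plus strand), had 33.5, 33.5 and 29.0 CPM in Yy1 cKO, against 50.4 and 47.2 CPM in controls, and fell by 0.61 ± 0.086 (adjusted p = 8.7e-04 by edgeR). Since it is X-linked and the sexes are mixed, it was also fitted with the level of Xist as a covariate, and the call held (-0.62, adjusted p = 0.0012 by edgeR). Plxna1 had 189, 197 and 160.3 CPM in Yy1 cKO, against 174 and 171 CPM in controls, and did not pass (0.08 ± 0.084, adjusted p = 0.56). Without Yy1 cKO 3 it was called, at 0.16 with an adjusted p of 0.012. The antisense gene Gm26811 shares 970 of the 9054 exonic bases of Plxna1 and had 20 to 27 counts per library.

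The make-up of the plexin A group differed between the genotypes. Plxna2 made up 22.0% ± 0.47 of the group's TPM in Yy1 cKO (SD, n = 3) and 35.9% ± 1.2 in controls (SD, n = 2). Plxna4 made up 24.3% ± 1.4 in Yy1 cKO and 12.3% ± 0.83 in controls. The ratio of Plxna4 to Plxna2 TPM was 1.13, 1.03 and 1.14 in Yy1 cKO, against 0.32 and 0.37 in controls. In TPM the order of the 2 receptors was therefore turned round in every Yy1 cKO library. That turn rests on the correction for length. In CPM Plxna2 stayed above Plxna4, at 171, 179 and 159 against 159, 152 and 149 CPM in Yy1 cKO 1, 2 and 3.

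**Figure D4:**
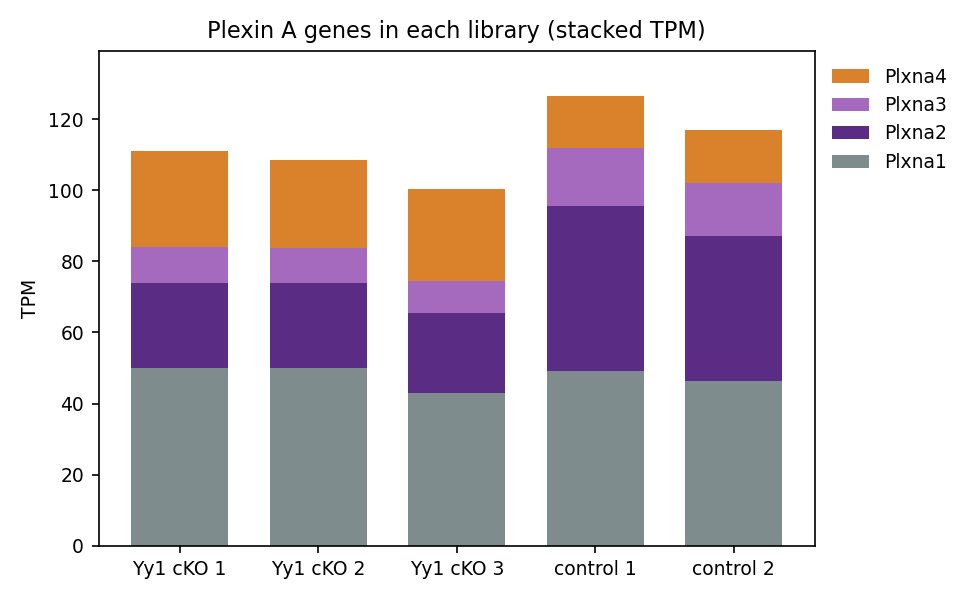
Stacked TPM of the 4 plexin A genes in each library, Yy1 cKO at the left and control at the right. The sum is 100.3 to 111 TPM in Yy1 cKO and 117 to 127 TPM in controls, with a thinner Plxna2 layer and a thicker Plxna4 layer in the Yy1 cKO bars.

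The plexin B group showed no called change. Plxnb2, the most abundant receptor per length in each group, had 214, 218 and 209 CPM in Yy1 cKO, against 220.1 and 219.7 CPM in controls (-0.04 ± 0.052, adjusted p = 0.64 by edgeR). Plxnb1 had 95.9, 106 and 117 CPM in Yy1 cKO, against 100.3 and 98.5 CPM in controls (0.10 ± 0.081), and the gene Gm7628 shares 257 of its 9592 exonic bases. Plxnb3 had 32.3 to 36.1 CPM in Yy1 cKO and 37.5 to 39.1 CPM in controls (-0.19 ± 0.082, adjusted p = 0.13).

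The single members of groups C and D both fell. Plxnc1, the receptor of Sema7a (chromosome 10, 94790866 to 94944835, minus strand), had 41.0, 43.9 and 47.3 CPM in Yy1 cKO, against 62.5 and 58.8 CPM in controls (-0.46 ± 0.076, adjusted p = 0.0021 by edgeR). Plxnd1, the receptor of Sema3e and a gene of endothelial cells (chromosome 6, 115954811 to 115995005, minus strand), had 34.0, 30.1 and 27.9 CPM in Yy1 cKO, against 48.6 and 46.3 CPM in controls (-0.63 ± 0.091, adjusted p = 0.0010 by edgeR). Nrp1, which also binds VEGF on blood vessels, had 10.4, 11.0 and 10.3 CPM in Yy1 cKO, against 14.2 and 13.9 CPM in controls (-0.41 ± 0.10, adjusted p = 0.019 by edgeR). It was not called without control 1, control 2 or Yy1 cKO 1, nor with DESeq2 (adjusted p = 0.052 to 0.14). Nrp2 had 20.7 to 25.1 CPM in Yy1 cKO and 27.7 to 28.4 CPM in controls and did not pass (-0.27 ± 0.10, adjusted p = 0.087).

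Known ligand and receptor partners can be set side by side. Sema6a and Plxna2 both fell, while Plxna4, the other receptor of Sema6a, rose. Sema3e rose and its receptor Plxnd1 fell. Sema4c fell and its receptor Plxnb2 did not pass. Sema7a did not pass while its receptors Plxnc1 and Itgb1 fell. Climbing fibres arise from neurons of the inferior olive in the brainstem, and transcripts of receptors in those neurons were not sampled.

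As the floxed gene encodes the factor YY1, the letters of its motif, AANATGGC on either strand, were searched in RefSeq promoter windows of GRCm38.p6. These run from 250 bases before to 50 after each start. A RefSeq start need not be the first base of the gene in GENCODE. The window of Plxna2, for example, lies inside its gene, which starts at 194618218. Starts without a window were not searched. Windows were used for 26 members. Those not used were of Plxna1, Plxna4, Sema3b, Sema3f and Sema6a. The motif was in 6.96% of the 27025 genes of the table and in 2 of the 26 members (Plxnb3 and 1 of the 3 windows of Sema4d). It was in 0 of the 11 called members with a window used, which do not include Sema6a and Plxna4. The windows of the receptor and the ligand that fell most among those 11, Plxna2 (chr1:194619579-194619878, plus strand) and Sema5b (chr16:35541112-35541411, plus strand), are shown with that of Plxnb3 (chrX:73756853-73757152, plus strand), all 5′ to 3′. The capitals mark the motif, here in its reverse form GCCATCTT starting 27 bases before the start of Plxnb3. A match is a description of the letters and not a binding site.
Plxna2: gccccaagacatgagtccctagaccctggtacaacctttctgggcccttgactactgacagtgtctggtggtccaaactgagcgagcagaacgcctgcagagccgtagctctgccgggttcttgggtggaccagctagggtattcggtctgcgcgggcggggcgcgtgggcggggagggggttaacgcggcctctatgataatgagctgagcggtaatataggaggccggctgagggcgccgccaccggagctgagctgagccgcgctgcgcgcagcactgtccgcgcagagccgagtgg
Sema5b: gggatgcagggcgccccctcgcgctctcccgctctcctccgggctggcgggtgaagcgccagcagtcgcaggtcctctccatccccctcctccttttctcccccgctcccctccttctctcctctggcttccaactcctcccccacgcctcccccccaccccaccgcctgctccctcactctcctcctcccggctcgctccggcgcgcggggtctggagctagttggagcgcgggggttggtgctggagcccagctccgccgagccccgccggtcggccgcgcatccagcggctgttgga
Plxnb3: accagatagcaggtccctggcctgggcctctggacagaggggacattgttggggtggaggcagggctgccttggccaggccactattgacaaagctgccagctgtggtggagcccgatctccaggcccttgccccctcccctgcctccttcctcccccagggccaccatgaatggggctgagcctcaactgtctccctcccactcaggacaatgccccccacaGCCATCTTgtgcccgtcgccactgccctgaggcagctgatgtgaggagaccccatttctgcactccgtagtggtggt

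Other genes of the pathway were lower more often than higher. Of 18 co-receptor genes 15 were tested (not Met, Mst1r and Timd2), and 7 fell and 1 rose (53.3%, against 23.4% of all genes tested), with a median of -0.34. Without control 1, 3 of them fell, and without control 2, 4 did. Itgb1, the beta1 integrin that binds Sema7a, had 76.0, 78.8 and 78.6 CPM in Yy1 cKO, against 102 and 105.5 CPM in controls (-0.42 ± 0.056, adjusted p = 6.8e-04 by edgeR). L1cam, which joins Nrp1 in the Sema3a receptor of axons, fell by 0.34 ± 0.059 and Cntn2, another adhesion molecule of axons, by 0.32 ± 0.066. Sdc3, a proteoglycan, fell by 0.37 ± 0.056, Ptk7 by 0.54 ± 0.12 and the VEGF receptor Kdr by 1.00 ± 0.15. The call of L1cam was lost without control 1 (adjusted p = 0.059 by edgeR), and those of Cntn2 and Ptk7 were lost without either control (adjusted p up to 0.079 and 0.094). Flt1 was the 1 that rose (0.24, adjusted p = 0.049), a call lost in 7 of the 13 alternatives.

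The 39 genes listed as semaphorin signalling effectors inside the cell were all tested. Of these, 13 fell and 5 rose (46.2%, against 23.4% of all genes tested and 26.8% of protein-coding ones), with a median of -0.14. The collapsin response mediator family (Crmp1 and Dpysl genes) links Sema3a to microtubules, and Crmp1, Dpysl3 and Dpysl5 fell in every alternative. Dpysl2 fell by 0.20 (adjusted p = 0.047 by edgeR), a call lost in 5 of the 13 alternatives, among them each fit without 1 control, without Yy1 cKO 1 or without Yy1 cKO 2. Dpysl4 did not pass (0.16, adjusted p = 0.063) but was called without Yy1 cKO 3. Dpysl3 had 35.1, 37.1 and 35.8 CPM in Yy1 cKO, against 184 and 177 CPM in controls (-2.32 ± 0.058, adjusted p = 2.8e-08 by edgeR). Dpysl5 fell by 1.39 ± 0.089 and Crmp1 by 0.55 ± 0.062. Rnd3, a small GTPase, had 12.7, 14.2 and 11.3 CPM in Yy1 cKO, against 30.8 and 41.9 CPM in controls (-1.51 ± 0.15), and Evl, an actin regulator, fell by 0.69 ± 0.060. Mical2, an enzyme that oxidises actin, had 265, 273 and 244 CPM in Yy1 cKO, against 145 and 144 CPM in controls, and rose by 0.85 ± 0.064 (adjusted p = 2.3e-05).

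**Figure D5:**
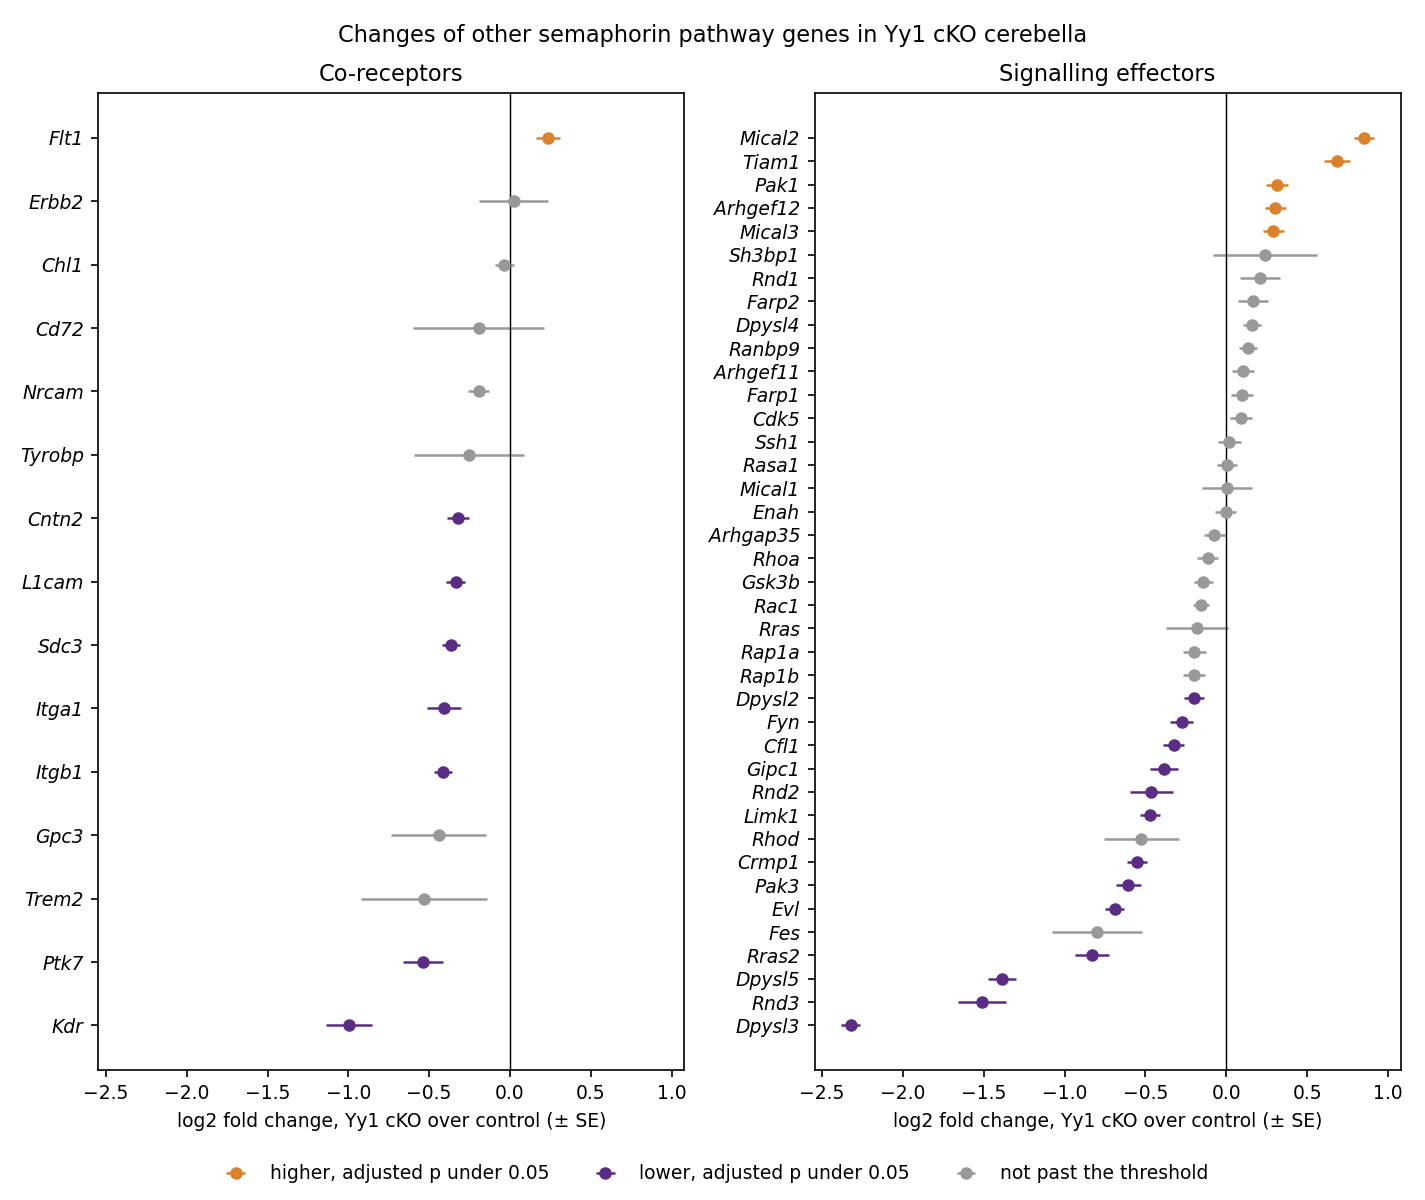
Log2 fold changes of 15 co-receptor genes (left) and 39 signalling genes (right), Yy1 cKO over control, with bars of 1 SE. Dpysl3 at -2.32 lies lowest and Mical2 at 0.85 highest.

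Marker genes of several cell types moved with these genes. In bulk tissue, fewer cells of a type and less RNA per cell cannot be told apart. Of 15 markers of granule cell progenitors and newborn granule cells 14 fell and 0 rose (Cntn2, also a co-receptor, among them). That is 93.3%, against 23.4% of all genes tested and 26.8% of protein-coding ones. Their summed levels were 1123 to 1217 CPM in Yy1 cKO and 2054 to 2160 CPM in controls. Dcx fell by 3.88 ± 0.066, and Atoh1, which defines the progenitors, had 0 to 1 counts in Yy1 cKO and 16 to 19 counts in controls. Sema6a, Plxna2, Dpysl3 and Dpysl5 fell beside these markers, as did Sema5b, Sema3d, Plxna3, Plxnc1, Plxnd1, Crmp1, Rnd3 and others. Of 12 mature granule neuron markers 10 rose and 1 fell (91.7%), at 5279 to 6068 CPM in Yy1 cKO and 4077 to 4222 CPM in controls. Plxna4 and Mical2 rose beside them. The genes are set beside the markers by direction only, and the cells that express them were not determined. The part of granule cells at either stage in the changes was not tested.

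Some vascular markers were lower, as were Plxnd1 and Nrp1, but the endothelial markers went both ways. The share of markers called was 50% for endothelial cells and 70% for oligodendrocyte precursors. Of all genes tested 23.4% were called, and of protein-coding ones 26.8%. Of 12 endothelial markers 4 fell and 2 rose, with Kdr and Flt1 counted here as well as among the co-receptors. Their summed level was 183 to 188 CPM in Yy1 cKO and 199 to 219 CPM in controls. Cldn5 fell by 1.01 ± 0.094 and Slco1a4 rose by 0.96 ± 0.096 on the log2 scale (adjusted p = 7.6e-05 and 1.2e-04 by edgeR). Of 8 mural cell markers 3 fell, at 142 to 178 CPM in Yy1 cKO and 225 to 252 CPM in controls, but 0 did without control 2, 1 without control 1 and 1 without Yy1 cKO 1. Of 12 meningeal and perivascular fibroblast markers 4 fell, and 1 without control 2. The summed level of the 12 markers overlapped between the groups, at 424 to 578 CPM in Yy1 cKO and 284 to 513 CPM in controls. Ptgds alone had 285 to 387 CPM in Yy1 cKO and 44.9 to 183 CPM in controls. Of 10 oligodendrocyte precursor markers 7 fell, at 340 to 390 CPM in Yy1 cKO and 500 to 507 CPM in controls, and 4 fell without control 1 and 3 without control 2. None of the defining markers Pecam1, Cldn5, Pdgfrb, Dcn or Pdgfra was at 0 in any library, and their part in the changes was not tested. The other lists are given for completeness, beside 23.4% of all genes and 26.8% of protein-coding genes called. Of 12 mature oligodendrocyte markers 6 rose and 1 fell, of 14 Purkinje cell markers 4 rose (28.6%), of 12 interneuron markers 7 rose, of 12 astrocyte and Bergmann glia markers 4 rose and 2 fell, of 8 unipolar brush and nuclear neuron markers 1 rose and 2 fell, and of 9 tested microglia markers 1 fell. Of 6 tested choroid plexus and ependyma markers 2 rose and 1 fell, of 4 tested forebrain markers 2 fell, and of 7 cerebellar identity genes 1 rose and 1 fell (28.6%). The Purkinje and cerebellar identity shares lie near that of protein-coding genes. The fibroblast (33.3%), mural (37.5%) and unipolar brush and nuclear neuron (37.5%) shares are not far above it, in lists of 8 to 12 genes. The microglia share (11.1%) is below it.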

How the data were processed

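Per the labels, total RNA of mouse cerebella was extracted with TRIzol, depleted of ribosomal RNA and made into strand-specific libraries, with paired-end reads of 150 bp. The genome build was GRCm38, and STAR 2.7.1a, featureCounts, DESeq2 1.26.0, Trimmomatic 0.39 and FastQC 0.11.8 are named, per the submitters' processing notes. Settings, order and strand mode: not given in the sources used here. The authors deposited raw read counts, as whole numbers per gene, which were used as they stand. A second deposited table, a scaled form of the same counts, was not used.

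Of 55421 gene identifiers, 54673 matched GENCODE M21 with their version and 567 without it. Genes were tested in R 4.3.3 by quasi-likelihood with edgeR 4.0.16, with TMM scaling, filterByExpr and no covariate, over 20388 genes. Standard errors came from the quasi-likelihood F statistic. TPM used the union of exons. The main test was checked on simulated counts. Alternatives were DESeq2 1.42.0, limma-voom (limma 3.58.1), other scalings and filters, an Xist covariate, the replicate number as a block, and leaving out each library. A fit with a lone control takes that library to vary like those of the other genotype. Library pairs were compared by chi-square per gene, which was 3.51 to 16.7 within groups, so none was a copy.

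The members and lists were chosen with earlier results of these data known. The naming rule gave values per library for each member past the adjusted p of 0.05 or with a mean of at least 20 TPM, and up to 6 genes per pathway list and 3 per cell type list by smallest p. Of the last the text gives a few. Flt1, Ptgds, Itpr1, Car8, Pcp2, Calb1, Dpysl2, Dpysl4 and the cell type defining markers were named after their values were seen. Counts ran from 17 to 5819 per member and library. Precision also depended on the spread between libraries: Sema7a, with 1059 to 2088 counts, had an SE of 0.31. Sema3d, with 265 to 462 counts, had an SE of 0.11.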

Additional observations from a re-analysis of the deposited data

How the results depend on the processing

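Of the called members 0 changed sign in any of the 13 alternatives. Of the 13 called members, 5 (Sema3c, Sema3e, Sema4c, Sema6b and Nrp1) lost their call in at least 1 alternative, and of the 18 others, 8 were called in at least 1. Scaling by library size alone gave 1 higher ligand and 0 higher co-receptors, and 1432 higher and 3369 lower genes overall against 2185 and 2577. DESeq2 and limma-voom each also gave 0 higher co-receptors. Leaving out 1 library gave 0 to 4 ligands higher and 3 to 6 lower, 1 to 2 receptors higher and 4 to 5 lower, 0 to 1 co-receptors higher and 3 to 8 lower, and 2 to 6 signalling genes higher and 8 to 15 lower. Over all genes there were 920 higher and 1267 lower without control 1, 887 and 1300 without control 2, and 2990 and 3127 without Yy1 cKO 3. The cause of the larger counts without Yy1 cKO 3 was not tested. Over the 13 alternatives the marker lists gave 2 to 8 Purkinje markers higher, 3 to 9 oligodendrocyte precursor, 0 to 5 mural, 1 to 6 fibroblast and 2 to 5 endothelial markers lower, 12 to 14 granule progenitor markers lower and 8 to 11 mature granule markers higher. Without Yy1 cKO 3, 6 Purkinje markers and 3 cerebellar identity genes were higher.

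Same-numbered libraries deviated from their group means with correlations of 0.039 and 0.032, over 2 pairs. The deviations of the 2 controls mirror each other, and the Yy1 cKO mean includes the outlying Yy1 cKO 3. These values therefore cannot decide whether the replicate numbers pair the samples. With the replicate block 4 ligands were higher, 7 ligands were lower and 2 receptors were higher, with 3486 and 3575 genes in all. Yy1 cKO 3 has no partner, and this fit gives it no weight in the comparison. The 2 controls and the low counts of members such as Sema3b limit the changes that could be detected.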
